A study of Mus musculus with 6 samples.

Results

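10 genes that let a heart muscle cell cycle calcium, pace its beat and secrete natriuretic hormones were followed in embryoid bodies without TET enzymes. They were Ryr2, Pln, Casq2, Atp2a2, Slc8a1, Cacna1c, Sln, Hcn4, Nppa and Nppb, chosen by symbol. The array carried 12 probes for these 10 genes, found by matching each probe's transcript accession to RefSeq, out of 55418 probes with a value on every array. Atp2a2 and Slc8a1 had a pair of probes each and the other 8 genes had 1.

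The tested groups were embryoid bodies from TKO_26 and TKO_29, independent mouse embryonic stem cell lines with a Tet1/2/3 triple knockout, and they were set against embryoid bodies from 1 wild-type (WT) line. All lines had a mixed 129/C57BL6 background. The aggregates were grown without LIF, the factor that keeps stem cells undifferentiated, for 2 days in hanging drops and 8 more days in suspension, so that RNA came from day 10. Each line was read on 2 one-colour Agilent arrays (6 in all), which the series calls technical replicas. WT therefore stands for 1 line and TKO for 2, and p-values over arrays compare these lines with the spread between arrays of a line, not genotypes in general. WT and TKO samples occupied different columns of a single slide, and this position and the genotype cannot be told apart. Embryoid bodies are mixtures of cells, and in such bulk RNA fewer cells of a type and less RNA per cell cannot be told apart.

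In heart muscle, an action potential opens the L-type calcium channel, and the calcium that enters opens ryanodine receptors on the sarcoplasmic reticulum, the internal calcium store, whose release drives contraction. A pump returns calcium to the store under the brake of small membrane peptides, and an exchanger at the cell surface expels the rest. Hyperpolarization-activated channels let pacemaker cells fire by themselves, and embryonic atrial and ventricular muscle secretes natriuretic peptides, which are common markers of heart muscle made from stem cells.

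Signals are given as log2 processed signal minus the 75th percentile of the same array over the 19178 probes well above background on every array. Most values are therefore negative, and a lower number is a dimmer spot relative to its own array. "Well above background" is the scanner software's own flag. Between 38.4% (TKO_26 replicate 1) and 55.8% (TKO_29 replicate 1) of spots carried it, and the lowest scaled signal that carried it lay at -6.24 on TKO_26 replicate 1 and between -9.80 and -6.93 on the other arrays. Precision is set by the small number of arrays and lines. As a check of the labels, 4 of 7 probes of the targeted genes were lower in both TKO lines by the rule below: 1 of 2 for Tet1, 2 of 2 for Tet2 and 1 of 3 for Tet3. The other Tet1 probe differed from WT by -0.08 in TKO_26 and 0.23 in TKO_29 on the log2 scale. The other Tet3 probes differed by 1.05 and -0.62, and by -2.60 and -4.42, in the same order. Where these probes lie relative to the deletions is not stated, so they check the labels in part.

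Testing required a probe to carry that flag on both arrays in 1 or more of the lines, which left 28267 probes. A gene "fell" or "rose" where limma gave a Benjamini-Hochberg adjusted p under 0.05 over all these probes and at least a 2-fold difference from WT, for TKO_26 and for TKO_29 alike and with the same sign. Of the 10 genes, 5 could be tested, on 6 probes: Nppa, Nppb, Ryr2, Casq2 and Atp2a2. On the brighter probe of each, 4 fell and 0 rose, and Casq2 did neither. Over all probes tested, 5.93% fell and 4.09% rose. Line by line the same 4 genes were lower in TKO_26, where 7.11% of probes were lower and 5.58% higher, and in TKO_29, where 10.8% were lower and 9.4% higher. On these probes the 4 TKO arrays lay below both WT arrays for the 4 genes, as for 23.9% of all probes, and above them for Casq2, as for 25.8%. The share that rose was smaller without either TKO_29 array, with 642 probes without replicate 1 and 667 without replicate 2 in place of 1156. With normexp background correction 986 probes fell and 369 rose, in place of 1676 and 1156. The other 5 genes, Pln, Slc8a1, Cacna1c, Sln and Hcn4, were not well above background on both arrays of any line. By group, 2 of the 10 genes were well above background on both arrays of TKO_26, 5 on both of TKO_29 and 4 on both of WT.

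**Figure D1:**
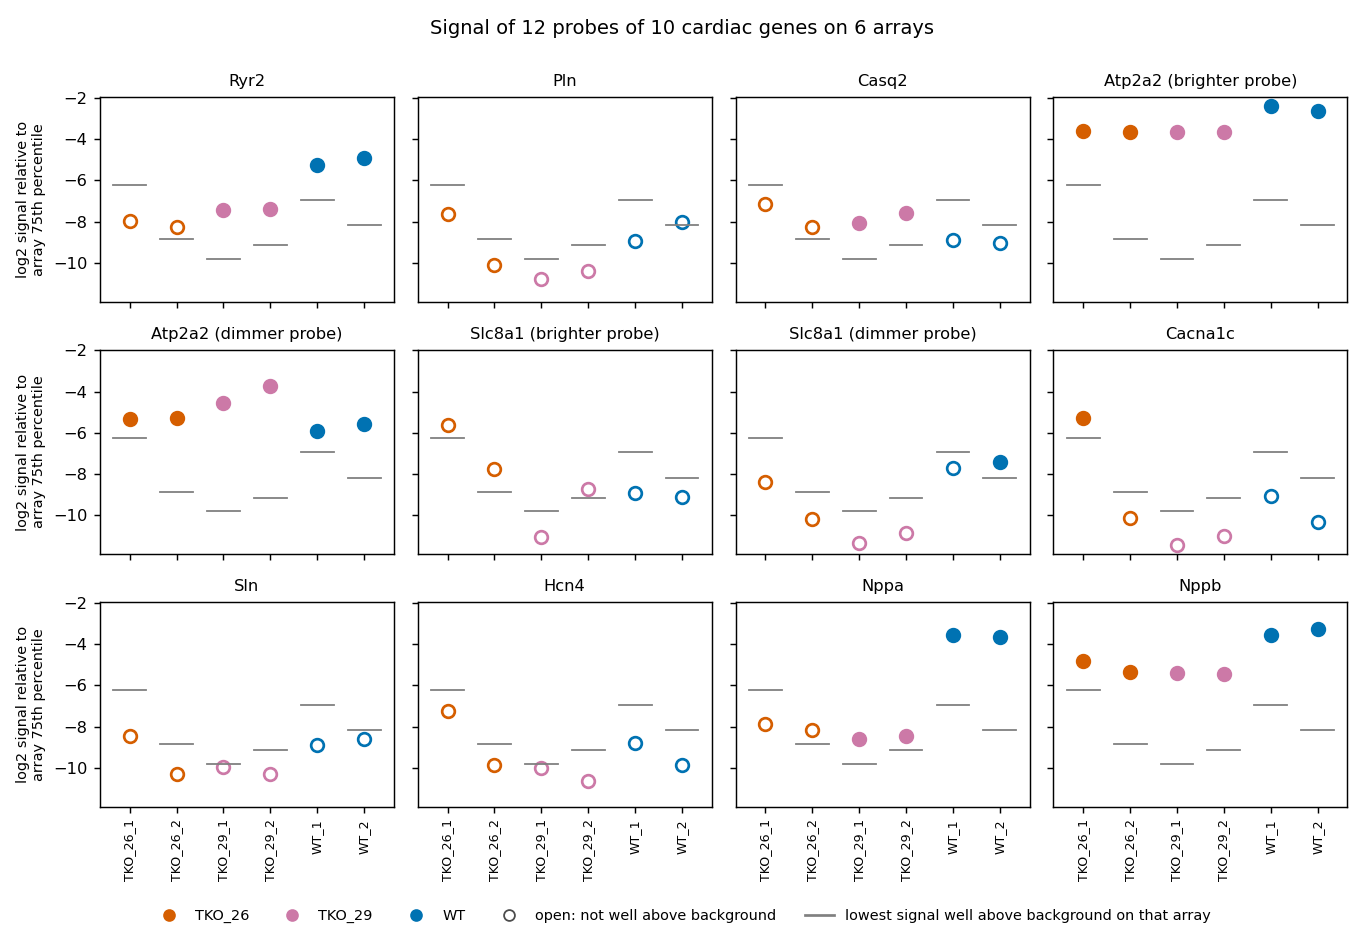
Scaled log2 signal (vertical axis, relative to each array's 75th percentile) of the 12 probes on the 6 arrays (horizontal axis). Filled points were well above background, open points were not, and grey bars mark each array's lowest signal that carried the flag. Nppa, Nppb, Ryr2 and the brighter Atp2a2 probe were lower on all 4 TKO arrays than on both WT arrays, while most points of Pln, Sln, Hcn4, Slc8a1 and Cacna1c are open.

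The natriuretic peptide genes come first because Nppa showed the largest decrease of the 5 genes tested. Nppa encodes atrial natriuretic peptide and Nppb encodes B-type natriuretic peptide, hormones that relax vessels and promote salt excretion. The genes are immediate neighbours on mouse chromosome 4, with 0 annotated genes between them. The 250 bases before the annotated start of each are shown because both genes fell together. They are from RefSeq (GRCm38.p6, plus strand). Nppa lies at chr4:148000472-148000721 and Nppb at chr4:147985650-147985899. Capitals mark matches on either strand to TATAAA (the TATA box), GATAA (a core read by GATA factors) and AAGTG (a core read by NKX2-5), none of which overlap each other here.
Nppa: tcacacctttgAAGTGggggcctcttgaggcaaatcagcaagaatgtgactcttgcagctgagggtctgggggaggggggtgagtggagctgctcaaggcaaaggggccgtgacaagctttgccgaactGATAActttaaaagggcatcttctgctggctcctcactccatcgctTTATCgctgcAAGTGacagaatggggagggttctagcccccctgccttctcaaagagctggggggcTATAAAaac
Nppb: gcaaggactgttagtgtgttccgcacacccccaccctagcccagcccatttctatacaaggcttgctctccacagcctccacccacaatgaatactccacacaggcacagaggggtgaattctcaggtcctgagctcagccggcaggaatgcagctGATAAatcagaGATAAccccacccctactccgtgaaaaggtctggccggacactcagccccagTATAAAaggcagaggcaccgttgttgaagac

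Both windows held 1 TATAAA and 2 GATAA matches, and of the pair only the Nppa window held AAGTG, in 2 places. Among the other genes, the Pln window also held 1 TATAAA and 2 GATAA matches, with 1 AAGTG. The Slc8a1 window held 2 GATAA matches. Neither Pln nor Slc8a1 could be tested. In Nppa one GATAA match and one AAGTG match lay close together, at positions -75 to -71 and -65 to -61 from the start, and in Nppb the GATAA matches lay at -94 to -90 and -83 to -79. Of 32851 mouse promoter windows of the same length, 12.4% held TATAAA, 22.6% GATAA and 40.7% AAGTG. The CArG box of serum response factor (1.47% of windows) and the MEF2 site (2.92%) had no match in these letters. Nppa had 4 CpG dinucleotides, the bases at which TET enzymes act, and Nppb had 5, against a median of 6 over all windows. DNA methylation was not measured here, and a match is a description of the sequence only.

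Nppa had scaled log2 signals of -7.89 and -8.16 on the TKO_26 arrays, -8.59 and -8.46 on the TKO_29 arrays, and -3.54 and -3.65 on the WT arrays. All TKO arrays lay far below both WT arrays, and the arrays of a line lay close together. In unscaled processed signal the gene read 27.6 to 62.5 on the TKO arrays, against 450 and 706 on the WT arrays. Unscaled, the groups overlapped for Ryr2, Nppb and the brighter Atp2a2 probe. TKO_29 replicate 1 read 140, 576 and 1920 for these, against 138, 444 and 986 on WT replicate 1. The 75th percentile of processed signal was 24149 and 5255 on these arrays, so the separation for these genes depends on the scaling. Neither TKO_26 array was well above background for Nppa, so its decrease there is a bound, at least 12.2-fold (limma adjusted p = 0.000661). Both TKO_29 arrays were, and the gene was 30.4-fold lower there (log2 difference -4.93 ± 0.16, SE; limma adjusted p = 0.000549).

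Nppb fell less. Its signals were -4.83 and -5.36 on the TKO_26 arrays, -5.39 and -5.45 on the TKO_29 arrays, and -3.57 and -3.26 on the WT arrays. Every array was well above background, and the 4 TKO arrays did not overlap the WT arrays after scaling. Nppb was 3.21-fold lower in TKO_26 (log2 difference -1.68 ± 0.23, SE; limma adjusted p = 0.0106) and 4.02-fold lower in TKO_29 (-2.01 ± 0.23, SE; limma adjusted p = 0.00507). Nppb thus kept a clear signal in both TKO lines, where Nppa was at or near background.

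Of the genes that release and store calcium in the sarcoplasmic reticulum, Ryr2 fell and Casq2 did not pass. Ryr2, the cardiac ryanodine receptor through which stored calcium leaves, had signals of -7.95 and -8.27 on the TKO_26 arrays, -7.43 and -7.40 on the TKO_29 arrays, and -5.25 and -4.93 on the WT arrays. The scaled WT values were highest and the scaled TKO values lay apart from them. Ryr2 was not well above background on either TKO_26 array and was at least 4.49-fold lower there (limma adjusted p = 0.00151), while it was measured on both TKO_29 arrays and was 5.03-fold lower (log2 difference -2.33 ± 0.19, SE; limma adjusted p = 0.00236). Ryr2 had 14 CpG dinucleotides in its 250 bases and none of the 5 motifs.

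Casq2, cardiac calsequestrin, binds calcium inside the store. It had signals of -7.13 and -8.27 on the TKO_26 arrays, -8.07 and -7.59 on the TKO_29 arrays, and -8.88 and -9.02 on the WT arrays. The values lay higher on the TKO arrays without overlap, but the spots were well above background on the TKO_29 arrays only. The differences were 1.25 ± 0.41 in TKO_26 and 1.12 ± 0.41 in TKO_29 on the log2 scale (SE) and missed the threshold (limma adjusted p = 0.0967 and 0.0900). No fold is given, because the lowest signal the WT arrays could measure lay above the TKO_29 signal on average. Casq2 entered the test only through TKO_29. The direction depended on the background correction, since with normexp the difference was 0.43 in TKO_26 and -0.31 in TKO_29. Without TKO_26 replicate 2 Casq2 passed in both lines, with a mean difference of 1.47.

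The genes of calcium uptake were mostly out of range. Atp2a2 encodes SERCA2, the pump that refills the store, and its transcripts have alternative 3′ ends that yield a cardiac isoform and one made in most cells. Its probes disagreed. The brighter probe read -3.59 and -3.63 on the TKO_26 arrays, -3.65 and -3.63 on the TKO_29 arrays, and -2.41 and -2.61 on the WT arrays. The 4 TKO arrays were nearly equal and all lower than WT, by 2.14-fold in TKO_26 (log2 difference -1.10 ± 0.13, SE; limma adjusted p = 0.00807) and 2.18-fold in TKO_29 (-1.13 ± 0.13, SE; limma adjusted p = 0.00552). These differences are close to the 2-fold limit, and Atp2a2 no longer passed with normexp, with the authors' matrix values, without a filter or without WT replicate 1, where the mean differences were -0.99, -0.89, -1.11 and -1.01.

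The dimmer Atp2a2 probe went the other way, with -5.31 and -5.30 on the TKO_26 arrays, -4.56 and -3.73 on the TKO_29 arrays, and -5.88 and -5.56 on the WT arrays. It was well above background on every array. Its difference was 0.42 ± 0.31 in TKO_26 (SE; limma adjusted p = 0.388) and 1.58 ± 0.31 in TKO_29 (SE; limma adjusted p = 0.0187), where it was 2.99-fold higher. TKO_29 passed on this probe and TKO_26 did not, but the direct comparison of the lines did not pass (-1.16 ± 0.31 for TKO_26 minus TKO_29, SE; limma adjusted p = 0.129). Both probes carry the same accession and which transcript ends they read is not stated, so the direction for Atp2a2 depends on the probe. Without TKO_29 replicate 2, and without WT replicate 1, the dimmer probe no longer passed in TKO_29 (1.16 and 1.42), nor did it with normexp (0.99; limma adjusted p = 0.0912) or without a filter (1.58; limma adjusted p = 0.101).

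Pln encodes phospholamban and Sln encodes sarcolipin, small membrane peptides that inhibit the SERCA pump. Neither was well above background on any of the 6 arrays. Pln read -7.65 and -10.07 on the TKO_26 arrays, -10.77 and -10.40 on the TKO_29 arrays, and -8.92 and -8.03 on the WT arrays. Sln read -8.44 and -10.27 on the TKO_26 arrays, -9.95 and -10.29 on the TKO_29 arrays, and -8.88 and -8.62 on the WT arrays. The groups overlapped for both genes, and their processed signals of 8.99 to 33.9 for Pln and 9.11 to 24.5 for Sln gave no level in any line. A difference in these peptides was thus not detectable at this signal.

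The genes of calcium entry and exit at the cell surface were likewise barely seen. Slc8a1 encodes the sodium-calcium exchanger NCX1. Its dimmer probe was well above background on WT replicate 2 only, reading -8.37 and -10.15 on the TKO_26 arrays, -11.35 and -10.86 on the TKO_29 arrays, and -7.71 and -7.41 on the WT arrays. Both WT arrays were the highest, but the probe did not enter the test. The brighter Slc8a1 probe was not well above background on any array, reading -5.61 and -7.75 in TKO_26, -11.07 and -8.71 in TKO_29 and -8.91 and -9.08 in WT.

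Cacna1c, which encodes the pore of the L-type calcium channel of heart and smooth muscle, was well above background on a single array, TKO_26 replicate 1, at -5.29. The other TKO_26 array read -10.10, the TKO_29 arrays -11.43 and -10.97, and the WT arrays -9.03 and -10.31. The arrays of TKO_26 thus differed widely for Cacna1c, and the array that stood apart had the lowest share of spots above background of the 6. The spots of its repeated probes spread most (median standard deviation 22.1% of the mean, against 6.4% to 8.5% on the other arrays). That array had the most outlier spots too (430, against 190 to 255). It also gave the highest scaled values of Pln, Sln, Hcn4, Casq2 and the brighter Slc8a1 probe, on which it was not well above background. Hcn4, the main pacemaker channel of the sinus node, was not well above background on any array, with -7.23 and -9.85 on the TKO_26 arrays, -10.03 and -10.65 on the TKO_29 arrays, and -8.80 and -9.84 on the WT arrays. No level of Hcn4 is given for any line.

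**Figure D2:**
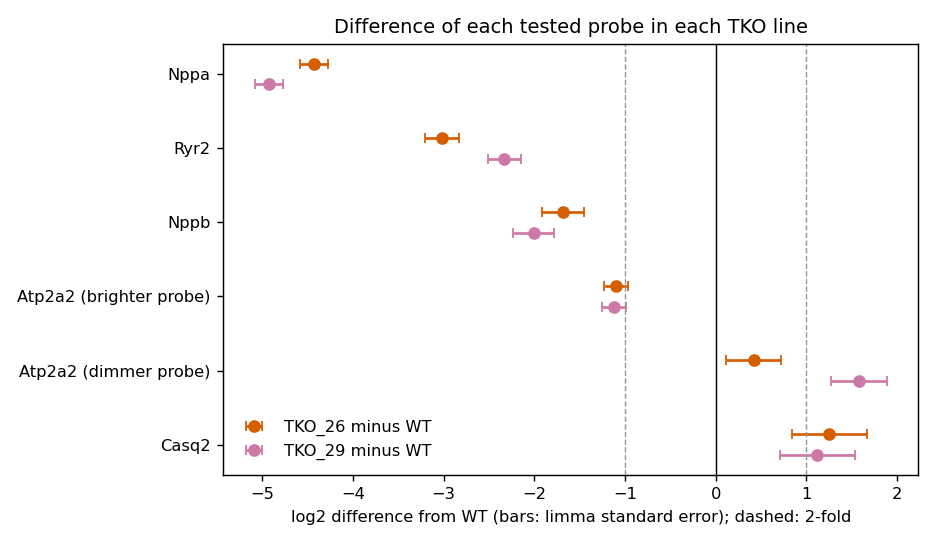
Log2 difference of each TKO line from WT (horizontal axis, with limma standard errors, 6 arrays in 3 groups) for the 6 probes that could be tested. Dashed lines mark 2-fold; Nppa, Ryr2, Nppb and the brighter Atp2a2 probe lie below it in both lines, while the dimmer Atp2a2 probe and Casq2 lie on the positive side. For Nppa and Ryr2 in TKO_26, and for Casq2 in TKO_26 and WT, the spots were not well above background.

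The TKO lines were also compared with each other. None (0) of the 5 tested genes passed between TKO_26 and TKO_29 in limma, in a comparison in which 0.428% of all probes passed, and 3 of their 6 probes had an unadjusted p under 0.05, as did 6351 of all 28267 probes. These were the dimmer Atp2a2 probe, given above, and the probes of Ryr2 (-0.69 ± 0.19 for TKO_26 minus TKO_29, SE; limma adjusted p = 0.131) and Nppa (0.50 ± 0.16, SE; limma adjusted p = 0.164). For Ryr2 and Nppa the TKO_26 arrays were not well above background. For Nppb the difference was 0.33 ± 0.23 (SE; limma adjusted p = 0.410). The count over all probes, 121, was 1210 without TKO_26 replicate 2 and 0 without any other single array.

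When each line was averaged first and counted as 1 replicate, leaving 1 residual degree of freedom, Nppa alone passed (log2 difference -4.68 ± 0.39, SE; limma adjusted p = 0.0475), in a test that called 0.637% of all probes lower and 0.11% higher. WT is a single line in this test and was assumed to vary like the TKO lines, and the Nppa difference includes TKO_26 values not well above background. The adjusted p was 0.0941 for Ryr2, 0.115 for Nppb, 0.204 for Casq2 and 0.220 for the brighter Atp2a2 probe. The number of these genes passing was 0 without TKO_26 replicate 2 or TKO_29 replicate 2, 2 without TKO_29 replicate 1 and 3 without TKO_26 replicate 1. The number of probes called lower, 180, was 0, 0, 615 and 973 in the same settings, and the number called higher, 31, was 0, 0, 236 and 459; without WT replicate 2 it was 69.

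The wider calcium, pacemaker and natriuretic pathways were read from 6 lists of 84 other genes, of which 62 could be tested, each on its brightest tested probe. Of these 11 fell and 1 rose, with a median log2 difference of -0.54. With 1 probe per gene over the whole array, 6.59% of 21421 genes and unnamed features fell and 4.05% rose, and the median difference of all probes was -0.001.

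Of 11 pacemaker and conduction channels and gap junctions tested, 5 fell and 0 rose (median -0.94). Gja5, which encodes a gap junction connexin of atrial and conduction tissue, was measured in WT but on none (0) of the TKO arrays, and lay at least 50.5-fold lower in TKO. It read -8.45 and -10.20 in TKO_26, -11.06 and -10.35 in TKO_29, and -2.81 and -2.89 in WT. Kcnj5, a subunit of the acetylcholine-activated potassium channel of atrial and pacemaker cells, fell at least 12.9-fold, with 3 TKO arrays well above background. Kcnh2 and Kcnq1, potassium channels that end the action potential, fell 3.02-fold and at least 2.46-fold, Kcnq1 being measured on 3 TKO arrays. Kcna5 fell at least 2.07-fold on its brightest probe, with 2 TKO arrays well above background, but its other tested probe differed by 1.15. The Kcnq1 call was lost without any 1 array other than TKO_26 replicate 2, with differences of -2.01 to -1.60. It was also lost with normexp and the authors' matrix (-0.97 in each), with quantile normalization (-2.08) and without a filter, and the Kcnh2 call was lost with normexp (-1.18) and without a filter. The count was 2 with normexp and 3 with quantile normalization or the authors' matrix. Of the relatives of Hcn4, Hcn2 and Hcn3 were tested and did not pass in both lines. Hcn2 passed in TKO_29 (-1.08, limma adjusted p = 0.00990) but not in TKO_26 (-0.07, limma adjusted p = 0.793), and Hcn3 passed in neither line.

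Of 13 voltage-gated calcium channel subunits tested, 3 fell and 0 rose (median -0.62); 1 fell with normexp or the authors' matrix, and 1 rose with quantile normalization or the percentile over all probes. They were Cacna1d (at least 3.69-fold), the L-type channel of pacemaker and neuroendocrine cells, Cacna1h (at least 3.54-fold), a T-type channel, and Cacna2d1 (2.36-fold), an auxiliary subunit whose other probe differed by -0.50. Cacna1d was measured on 2 TKO arrays and Cacna1h on 3. Cacna1d and Cacna2d1 were lost without WT replicate 1, which left a count of 1, and Cacna1d also without WT replicate 2 or either TKO_29 array. Their mean differences were then -2.61 to -2.45 for Cacna1d and -1.15 for Cacna2d1. Both calls were also lost without a filter, with normexp (-1.17 for Cacna1d and -1.07 for Cacna2d1) and with the authors' matrix (-1.15 and -0.97), so the size of the Cacna1d decrease depended on these settings.

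Of 6 natriuretic peptide receptors, processing enzymes and kinases tested, 2 fell and 0 rose (median -1.05). Npr3, the receptor that clears natriuretic peptides, fell at least 4.04-fold, with 3 TKO arrays well above background, and Prkg1, the kinase activated by the cyclic GMP that the peptide receptors make, fell 2.97-fold. The Prkg1 call was lost without a filter (-1.57). The count of decreases was 1 of 9 without a filter and 1 of 4 with signal demanded on all 6 arrays. It was 3 of 6 with 1 probe per gene or with a variance trend. Npr1, the receptor of the Nppa and Nppb products, and Nppc, the gene of C-type natriuretic peptide, were not well above background on any array.

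Of 10 other calcium store genes tested, 1 fell and 1 rose (median -0.46). Itpr2, an inositol trisphosphate receptor, fell 2.67-fold. Jph1, a junction protein of skeletal muscle, rose at least 1.48-fold from a WT signal not well above background, and its call was lost without any 1 array other than TKO_26 replicate 1. Jph1 entered the test only through TKO arrays, and its call was also lost without a filter, with a variance trend, with the replicate block, with quantile normalization (1.31), with normexp (0.13, against 1.44) and with the authors' matrix (0.36, with TKO_26 at -0.15). Without WT replicate 2 the store list had 2 decreases. None (0) of 9 calcium pumps, exchangers and their regulators passed in limma in both lines (median 0.33). The largest mean difference was that of Slc8b1, a mitochondrial exchanger (1.25, with -0.78 on another probe). In TKO_29 alone, Slc8b1 (1.80, limma adjusted p = 0.0166), Atp2a1 (1.63, limma adjusted p = 0.0153) and Slc8a3 (-1.64, limma adjusted p = 0.0198) passed. None (0) of 13 genes of calcium and adrenergic signalling passed in both lines (median -0.42). On the brightest probes the largest mean difference was that of Calm2, a calmodulin gene (-0.83). Camk2a differed by -0.15 on its brightest probe but by -2.81 on its other tested probe. Prkaca passed in TKO_29 alone (-1.10, limma adjusted p = 0.0289).

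**Figure D3:**
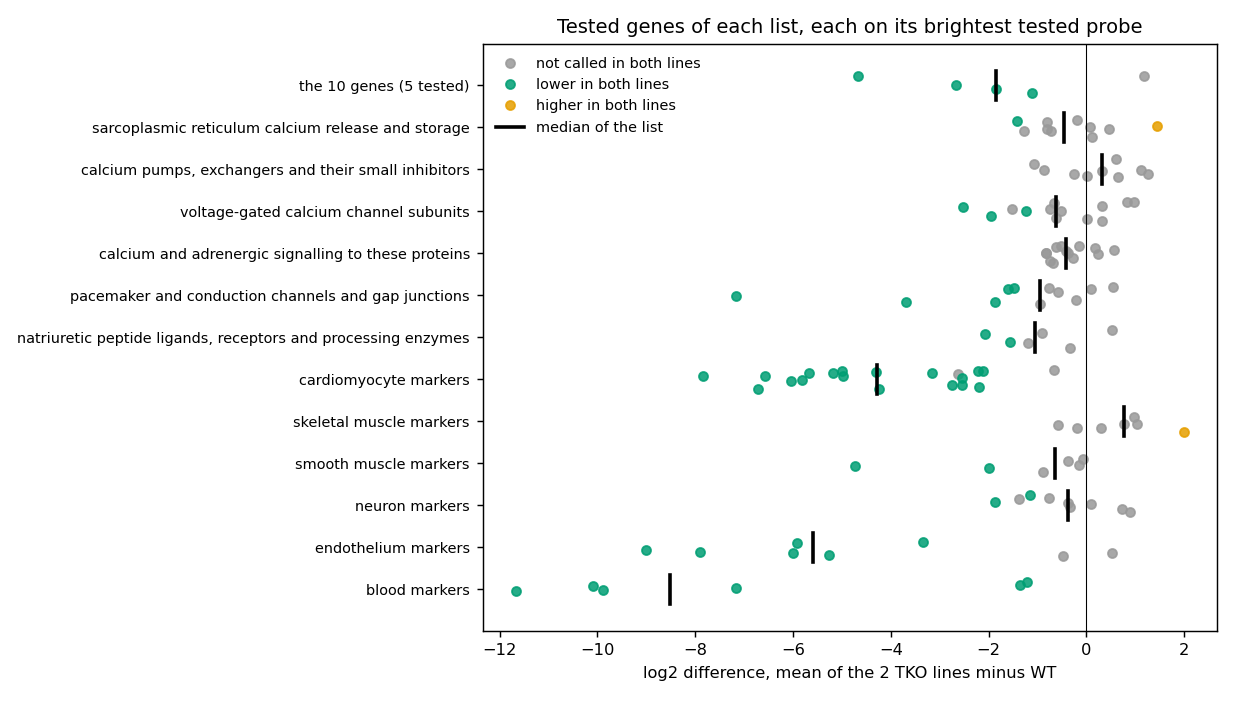
Log2 difference, mean of the 2 TKO lines minus WT (horizontal axis), of each tested gene in the 10-gene set, 6 pathway lists and 6 cell type marker lists (vertical axis), each on its brightest tested probe; colours mark genes lower or higher in both lines and black bars the list medians. Cardiomyocyte, endothelium and blood markers reach further down than the calcium and channel lists, whose medians lie between -1.05 and 0.33.

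Markers of heart muscle itself moved in the same direction as Nppa, Nppb and Ryr2. Of 20 cardiomyocyte markers, 18 fell and 0 rose (median -4.28), and their summed scaled signal, in units of each array's 75th percentile, was 3.94 to 4.27 in TKO_26 and 3.66 to 3.83 in TKO_29, against 43.8 to 49.4 in WT. Each WT array measured all 20 of them, so cardiac muscle transcripts were present in the WT embryoid bodies in which Pln, Sln and Hcn4 were not measured. Myl7, an atrial myosin light chain, fell at least 210-fold, Hand2, a heart field transcription factor, at least 92.0-fold, and Myl2, a ventricular myosin light chain, at least 60.7-fold, each measured on 3 of 4 TKO arrays. Tnnt2, cardiac troponin T, fell 95.0-fold. The part that the number of heart muscle cells plays in the decreases of Nppa, Nppb, Ryr2 and Atp2a2 was not tested.

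Markers of other cell types were looked at in the same way. Of 6 smooth muscle markers tested, 2 fell and 0 rose (median -0.63), namely Myocd (26.4-fold), a cofactor of serum response factor in smooth and cardiac muscle, and Acta2 (3.99-fold), smooth muscle actin. Their list's summed signal was 9.13 to 11.2 in TKO_26 and 6.52 to 9.39 in TKO_29, against 14.8 to 20.2 in WT. Myh11 and Lmod1 were not well above background on any array, and the Acta2 call was lost without either TKO_29 array (-1.94 and -2.06). Of 8 endothelium markers 6 fell, with summed signals of 0.25 to 0.34 in TKO_26 and 0.14 to 0.17 in TKO_29, against 2.97 to 3.01 in WT. Of 6 blood markers tested 6 fell, with 0.054 to 0.056 in TKO_26 and 0.047 to 0.050 in TKO_29, against 9.13 to 9.86 in WT. On both arrays of a line, 6 blood markers were well above background in WT, 3 in TKO_29 and 1 in TKO_26, so some entered the test through WT only. With signal demanded on all 6 arrays, 2 endothelium markers were tested and 0 fell (median 0.01), and 1 blood marker was tested and fell. The part of these cell types in the differences of the 10 genes was not tested.

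Only 3 probes of the 10 genes were well above background on every array, those of Atp2a2 and Nppb. Their mean centred profile over the 6 arrays was closest to those of Pxdn, Esyt1, Megf6, Lman2 and Gm11127 among 14467 candidate probes, with Euclidean distances of 0.166 to 0.192 on the log2 scale. These genes differed from WT by -0.66 to -0.55, and the dimmer Atp2a2 probe itself lay at a distance of 2.15 from the mean profile, so the mean describes the probes poorly.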

How the data were processed

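Per the labels' protocols, total RNA was labelled with Cy3 for 1-colour Agilent arrays. Per the file headers, Agilent Feature Extraction 10.5.1.1 gave each spot's processed intensity, background-subtracted and detrended within the array, with median intensities and flags. A log2 matrix was deposited too, made in a way the labels do not state. Its columns tracked the median signals of their arrays (r 0.995 to 1.00 across probes), though that of TKO_29 replicate 1 followed another array equally well (0.9962 and 0.9963). Its scale is log2, not centred per probe.

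Control and outlier spots were left out (263 probes lost), saturated spots kept and repeated spots averaged on the log2 scale. Because as few as 38.4% of spots on an array were well above background, the percentile was taken over the probes measured on all arrays. Probes were named through RefSeq accessions (GRCm38.p6 table; 27365 of 55418 named); the array was designed on mm9, so no probe coordinates are printed. Tests used limma 3.58.1 in R 4.3.3 on 6 arrays in 3 groups (3 residual degrees of freedom), and on line averages (1 residual degree of freedom, WT assumed to vary like the TKO lines). The fit in 3 groups was tested on simulated arrays with known changes and no added spread between lines. The fit on line averages was not tested in this way. A fold is a bound ("at least") where an array of the dimmer group was not well above background: the brighter group's mean against the mean, per array, of the probe's signal or the lowest signal well above background, whichever is higher. Summaries used numpy 2.4.6 and pandas 2.3.3 (Python 3.11.15).

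Every probe of the 10 genes is described. Of each list up to 4 genes called in both lines with the largest differences are named, or the largest where none was called. The 5 genes nearest in profile are named too. Genes named as not passing, as passing in TKO_29 alone or as not above background were chosen after their values were seen. So were Kcna5 and Camk2a, named because their probes disagreed. The members and lists were chosen with earlier results of these data known. The alternatives were normexp (offset 50, on median signals because no mean signal is given), other scalings, filters and variance models, the authors' matrix, the replicate number as a block, and leaving out each array. Columns of per-sample values from other samples numbered 0.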

Additional observations from a re-analysis of the deposited data

How the results depend on the processing

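Nppa, Nppb and Ryr2 kept their direction under every alternative run, and passed in both lines in all of them except Nppb without a filter; Nppa and Ryr2 could not be tested where signal was demanded on all 6 arrays. Their mean differences ranged from -4.75 to -2.91 for Nppa, -2.84 to -1.54 for Ryr2 and -2.00 to -1.51 for Nppb, the smallest decreases coming with normexp or the authors' matrix. The number of the 10 genes that fell was 3 with normexp and with the authors' matrix, 2 without a filter and 2 with signal demanded on all 6 arrays, and 3 to 4 with 1 array left out. Probes that fell in both lines numbered 986 with normexp, 620 without a filter and 842 with signal on all 6 arrays, and 1217 to 1708 with 1 array left out. Probes that rose numbered 369, 208 and 569 in the same settings, and 642 to 1439 with 1 array left out. Probes called between the TKO lines numbered 0 with normexp, quantile normalization, no filter, 1 probe per gene or the replicate block, 293 with the percentile over all probes, 403 with the authors' matrix, 548 with signal on all 6 arrays and 771 with a variance trend, and 0 to 1210 with 1 array left out. On line averages the 10 genes gave 3 calls with normexp, the authors' matrix or a variance trend, 0 with quantile normalization, no filter or signal on all 6 arrays, and 0 to 3 with 1 array left out. Probes lower on line averages numbered 864 with normexp, 1113 with the matrix and 1264 with the trend, and 0 to 973 with 1 array left out; probes higher numbered 168, 607 and 758, 47 with the percentile over all probes, and 0 to 459 with 1 array left out. Both were 0 with quantile normalization, no filter or signal on all 6 arrays. The stricter and looser filters also change how many probes are tested (19178 and 55418); otherwise the cause was not tested. The median difference of all probes tested was -0.12 with normexp and -0.28 without a filter, and within 0.1 of 0 otherwise; relative to it Nppa, Nppb and Ryr2 were still lower.

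The replicate numbers do not pair the arrays: the difference between replicates 1 and 2 over 19178 probes correlated at -0.43 between TKO_26 and TKO_29, 0.38 between TKO_26 and WT and -0.32 between TKO_29 and WT. With the replicate number as a block 4 of the 10 genes fell as before, 1561 probes fell and 987 rose, and 0 were called between the TKO lines. Background limits these results: 6 of the 12 probes could not be tested, and folds of Nppa and Ryr2 in TKO_26 are bounds.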

Other observations

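Skeletal muscle and neurons also use calcium release channels. Of 7 skeletal muscle markers tested, 0 fell and 1 rose (median 0.77): Pax7, a transcription factor of muscle stem cells and of dorsal neural tissue, was at least 1.52-fold higher in TKO than in WT, where it was not well above background, and its call was lost without WT replicate 1 (1.99). Pax7 entered the test only through TKO arrays, and its call was also lost without a filter, with quantile normalization (2.33), with the authors' matrix (0.87) and with normexp (0.44, against 2.00). Without WT replicate 2 the list had 2 increases. Myod1, Myog, Myf5, Myf6 and Ckm, also on this list, were not well above background on any array. Of 9 neuron markers tested, 2 fell and 0 rose (median -0.39), Tubb3 (3.66-fold), a neuronal tubulin, and Syt1 (at least 1.78-fold), a synaptic vesicle protein. The Tubb3 call was lost without any 1 array other than WT replicate 2, with differences of -1.96 to -1.50, and the Syt1 call without any 1 array other than TKO_29 replicate 2, with -1.31 to -1.01. Both calls were also lost without a filter and with normexp (-1.74 for Tubb3 and -0.55 for Syt1), and the Syt1 call with quantile normalization (-1.17) and the authors' matrix (-0.36, against -1.16).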
